A study of Homo sapiens with 4 samples.

Results

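The regions described are skipped exons of protein-coding genes that the gene annotation places only in transcripts without a coding sequence. They were examined in MDA-LM2 cells, a lung-metastatic derivative of the human breast cancer line MDA-MB-231. The cells were transfected by lipofection, either using the SSE mimetic or a scrambled oligo, and are called SSE mimetic cells and scrambled cells here. SSE stands for structural splicing enhancer, a folded RNA element named for its effect on exon inclusion. Each group had 2 samples, 4 in all. The labels do not say whether these came from separate cultures, and apart from the transfected RNA both groups had the same line, medium, column extraction of total RNA with DNase and library reagents. The deposited tables hold 1 read set per group, so there is no spread between replicates and no test across samples.

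An exon was included when it was 76 to 999 nt long and matched exactly an exon of a protein-coding gene in GENCODE release 29 (hg38) that occurred only in transcripts of that gene with no coding sequence, such as retained intron and processed transcript models. In each group it also needed 10 or more isoform-specific reads, which fit the inclusion isoform alone (inclusion reads) or the skipping isoform alone (skipping reads). Of 39120 distinct skipped exons, 2586 met the annotation and length terms, and 477 of these, in 438 genes, also had the reads. The reads were short in SSE mimetic cells alone for 643 exons, in scrambled cells alone for 12 and in both groups for 1454. These 477 stand among 8228 tested exons of all kinds. The 48 members with exactly 10 reads in the shallower group had a median difference of percent spliced in of 0.045, and the 56 exons just outside, with 9 reads, had 0.04.

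Vertebrate genes carry many exons that are seldom used in productive messenger RNA. Some lie inside introns and hold premature stop codons, and their inclusion can send the transcript to nonsense-mediated decay, for which they are called poison exons. Others are unspliced stretches, in which an intron or its edge is kept. Short reads from such a stretch can come from a spliced transcript that includes the exon or from unspliced precursor RNA that passes through it. Where the stretch overlaps an exon of a coding transcript, reads of the shared part can also come from that transcript. These sources cannot be told apart from reads within the exon.

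By place in the gene, 231 of the 477 exons overlapped no exon of a coding transcript and are called intronic here. Another 149 shared a splice site with a coding-transcript exon: 68 shared the 3′ splice site, 76 the 5′ splice site and 5 had both sites in such exons. A further 85 spanned a whole intron of a coding transcript (57 of them a single intron), and 12 overlapped a coding-transcript exon in another way. By transcript model, 329 were in processed transcripts, 137 in retained intron transcripts, 7 in both and 4 in transcripts of the lincRNA type within a coding gene. For 384 exons (80.5%), the skipping junction was itself an annotated intron of a coding transcript. The members are not independent: 31 overlapped another member, and 37 genes held more than 1.

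Translation would stop within most of the exons that could be read in a single frame. A reading frame was carried in from the upstream exon of the event where the coding transcripts gave just 1, which was so for 297 exons. Of these, 257 (86.5%) had an in-frame stop codon, at a median of 45 nt from the exon start. Among intronic exons with 1 frame, 148 of 162 had a stop, at a median of 37.5 nt. Of the rest with 1 frame, 28 had no stop and a length that changes the frame, and 12 had no stop and a length that is a multiple of 3. A further 80 exons had more than 1 upstream frame and 100 had no coding frame upstream.

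The sequences of 5 intronic exons are given because they are called exons of at most 200 nt, outside annotated untranslated regions, that either had 20 or more isoform-specific reads in both groups or passed Fisher's exact test, and because each holds an in-frame stop codon. They are read 5′ to 3′ on the transcript strand from the GENCODE release 29 transcripts (hg38), with the first in-frame stop codon in capitals. SCLT1 lies at chr4:128952343-128952532 (minus strand), YME1L1 at chr10:27129237-27129357 (minus strand), SLC44A1 at chr9:105299743-105299937 (plus strand), SELENOK at chr3:53890926-53891060 (minus strand) and STX1A at chr7:73716581-73716734 (minus strand).
SCLT1: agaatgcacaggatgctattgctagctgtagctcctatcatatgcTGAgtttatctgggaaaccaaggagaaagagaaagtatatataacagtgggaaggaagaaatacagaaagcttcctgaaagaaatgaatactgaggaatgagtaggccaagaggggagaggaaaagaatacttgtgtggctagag
YME1L1: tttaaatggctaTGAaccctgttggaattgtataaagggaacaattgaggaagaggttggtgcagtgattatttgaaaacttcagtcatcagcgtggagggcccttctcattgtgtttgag
SLC44A1: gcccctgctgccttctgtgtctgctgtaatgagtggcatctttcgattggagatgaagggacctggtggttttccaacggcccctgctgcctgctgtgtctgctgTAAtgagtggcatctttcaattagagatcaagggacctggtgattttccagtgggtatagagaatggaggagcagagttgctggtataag
SELENOK: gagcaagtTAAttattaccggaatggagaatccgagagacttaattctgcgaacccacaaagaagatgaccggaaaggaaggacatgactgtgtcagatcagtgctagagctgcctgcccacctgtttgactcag
STX1A: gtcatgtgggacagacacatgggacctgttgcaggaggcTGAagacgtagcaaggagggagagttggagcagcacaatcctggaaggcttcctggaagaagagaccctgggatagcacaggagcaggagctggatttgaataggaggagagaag
The stop codon begins at nt 46 of the SCLT1 exon (TGA), nt 13 in YME1L1 (TGA), nt 106 in SLC44A1 (TAA), nt 9 in SELENOK (TAA) and nt 40 in STX1A (TGA).

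Sequence features were set beside those of coding exons, as a description. The rule did not read the sequence, but it kept only exons of transcripts without a coding sequence. A coding exon must keep a frame open over its coding part. The contrasts in stop codons and in length below are therefore partly set by the annotation and are no independent result. A stop codon was present in all 3 frames in 335 members (70.2%), against 841 of 5349 coding exons of the same length range (15.7%) and 270 of 308 exons of long noncoding RNA genes (87.7%). Their median length was 216 nt, against 152 nt for the coding exons and 246 nt for the long noncoding RNA exons, so the members also had more room for a stop. A length that is a multiple of 3 was found in 28.7% of members and 43.1% of coding exons. Median GC content was 49.5% in members, 47.5% in coding exons and 46.2% in long noncoding RNA exons. The 16-letter word CAGCACTTTGGGAGGC or its reverse complement GCCTCCCAAAGTGCTG, part of the Alu repeat family and chosen after the sequences were seen, was present in 22 of 477 members (4.61%) and in 14 of the 231 intronic ones (6.06%). It was present in 32 of 5349 coding exons (0.598%) and 8 of 308 long noncoding RNA exons (2.6%). Members held it 11 times in each orientation.

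More of these exons were called higher in SSE mimetic cells than lower. Percent spliced in (Ψ), the estimated fraction of a gene's transcripts that include the exon, was the authors' own value. An exon was called when Ψ differed by 0.1 or more and the authors' Bayes factor, which weighs evidence of a difference against evidence of no difference, reached 10. By that rule 27 of the 477 members were higher (5.66%), against 3.10% of all tested exons, and 3 were lower (0.629%), against 0.887% of all tested exons. The other 447 were not called. Coding exons of the same length range had 125 higher (2.34%) and 52 lower (0.972%), and long noncoding RNA exons had 10 higher (3.25%) and 0 lower. As a second reading, Fisher's exact test on inclusion and skipping reads, with Benjamini-Hochberg adjustment over the 8228 exons, found a larger inclusion share in 7 members, with 1.01% of all tested exons so called. It found a smaller share in 0 members, with 0% of all tested exons so called. Without adjustment, 43 of the 477 members had a larger and 1 a smaller share at a p under 0.05 by the same test. Of the 8228 tested exons, 453 had such a p in either direction. This test compares those libraries, not the conditions.

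Over all members, Ψ had a median of 0.66 in SSE mimetic cells and 0.47 in scrambled cells. In scrambled cells it was 0.89 for all tested exons, 0.92 for coding exons and 0.84 for long noncoding RNA exons. Exons near 1 have little room to rise, so the comparison sets started from unlike levels. The part of this in the shares called and in the medians below was not tested. The median of the single differences was 0.03 (quartiles -0.04 and 0.11), with 282 above 0 and 180 below. The corresponding median was -0.03 for all tested exons, -0.04 for coding exons and -0.02 for long noncoding RNA exons. In the members' own genes, 473 coding exons from 250 genes had a median difference of -0.03, with 12 called higher (2.54%) and 9 lower (1.90%). For the 26 genes of the members called higher, 37 such coding exons were tested, from 17 genes, also with a median of -0.03. Of these 37, 4 were called higher (10.8%) and 0 lower, against 2.34% higher among all coding exons of the same length range. Among the 190 members that had 20 or more isoform-specific reads in both groups, the median difference was 0.00, and 9 were called higher and 1 lower.

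The read numbers behind these values were low and unequal. Summed over all events, SSE mimetic cells had 431105 isoform-specific reads and scrambled cells 2039336, a ratio of 4.73 for scrambled over SSE mimetic. Per member the median number of isoform-specific reads was 17 in SSE mimetic cells and 53 in scrambled cells, and the authors' credible interval of Ψ had a median width of 0.36 in SSE mimetic cells and 0.19 in scrambled cells. No skipping read was seen in either group for 183 members (38.4%), against 59.4% of coding exons. Ψ of such an exon can still fall below 1, because it then follows from the balance of inclusion reads and reads shared by both isoforms. With scrambled reads scaled down to the SSE mimetic number in a 2-isoform model, 11 of the 477 members were called higher and 1 lower. Of all 8228 tested exons, 115 were then called higher and 33 lower. The median difference was then 0.06 in members, 0.02 in all tested exons and 0.01 in coding exons. It was 0.098 in long noncoding RNA exons, which thus lay above the members under this setting.

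**Figure D1:**
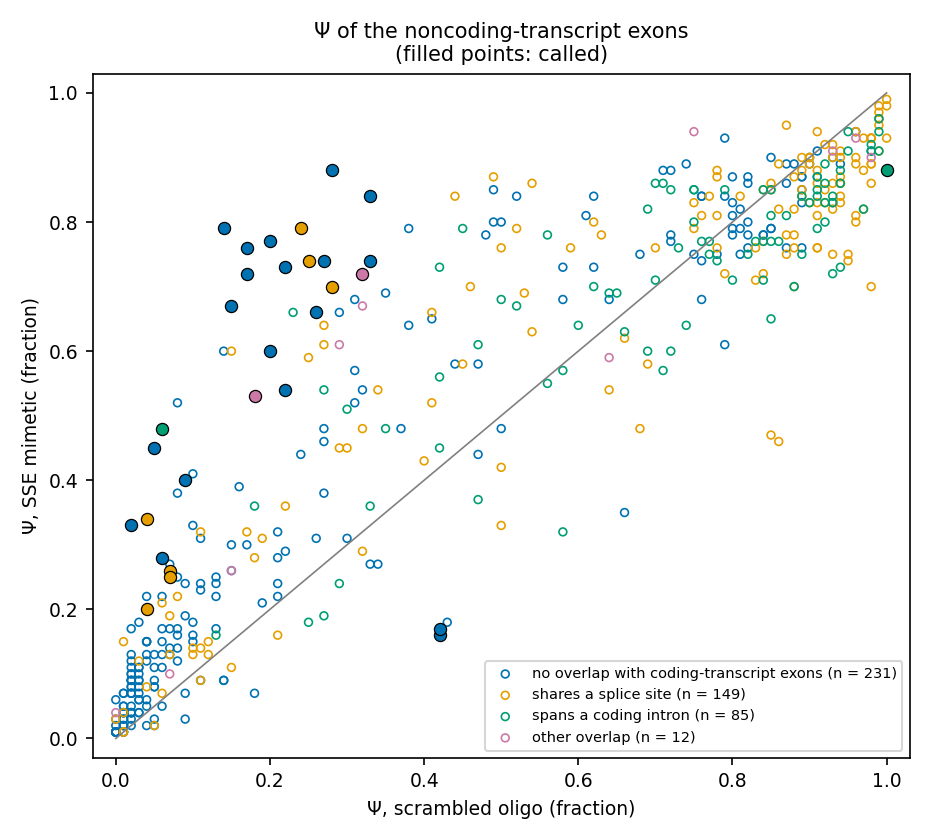
Each point is 1 of 477 noncoding-transcript exons, with Ψ (fraction) in SSE mimetic cells on the vertical axis and Ψ in scrambled cells on the horizontal axis. Colours give the place in the gene, filled points are the 27 exons called higher and the 3 called lower, and the line marks equal values. The filled points above the line all start from a scrambled Ψ below 0.5.

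The calls were spread unequally over the scrambled level of the exons. Of the 123 members with a scrambled Ψ of 0 to 0.1, 9 were called higher and 0 lower. Of the 120 with 0.1 to 0.5, 18 were called higher and 2 lower, with a median difference of 0.15. The 146 members with 0.5 to 0.9 had 0 calls and a median difference of -0.005. The 88 members with 0.9 to 1 had 0 called higher and 1 lower, with a median difference of -0.07. Values near 0 or 1 have room to move in 1 direction only. The exons were also sorted by the scrambled Ψ that the difference subtracts. Counting error in that Ψ alone makes low levels lean to positive differences and high levels to negative ones. The part of these limits in the counts and medians was not tested. Calls among all tested exons were not counted by scrambled level, so whether this spread is particular to the members was not tested either.

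Intronic exons held most of the calls. Their median Ψ was 0.26 in SSE mimetic cells and 0.13 in scrambled cells, the median difference was 0.05, and 177 of 231 differences were above 0 and 47 below. In this class 17 exons were called higher (7.36%), 2 lower, and 6 of the 7 exons that passed Fisher's exact test fell here. Among exons that share a splice site with a coding exon, 7 of 149 were called higher (4.7%) and 0 lower. Their median Ψ was 0.78 in SSE mimetic cells and 0.83 in scrambled cells. Among exons that span a coding intron, 1 of 85 was called higher and 1 lower, and median Ψ was 0.77 in both groups. For 68 of these 85, no skipping read was seen in either group. The median difference was -0.01 where a splice site was shared and -0.04 where an intron was spanned, but with scaled scrambled reads these medians were 0.05 and 0.04, so no direction is given for those classes. The intronic median was 0.03 after intron reads were subtracted and 0.07 with scaled reads. The 12 exons with another overlap had 2 called higher. Differences between the classes were not tested.

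**Figure D2:**
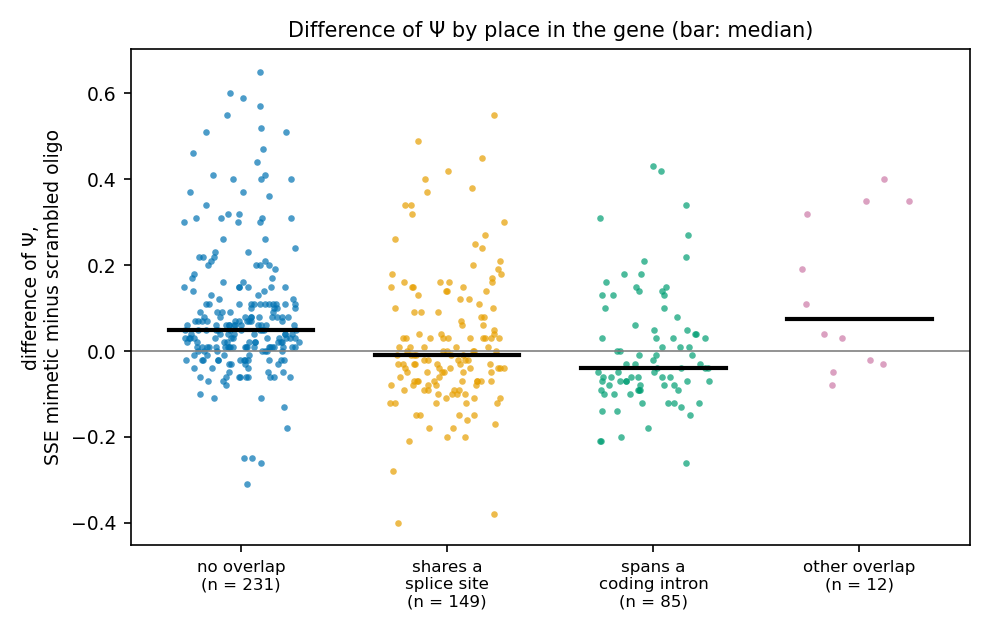
Difference of Ψ (SSE mimetic minus scrambled oligo, fraction) for each of the 477 exons by place in the gene, with a bar at the class median. The medians are 0.05, -0.01, -0.04 and 0.075 from left to right.

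The exons that passed both the Bayes factor rule and Fisher's exact test were in STAC, YME1L1, SELENOK, STX1A, SCLT1, F3 and CBWD5. STAC encodes an adaptor protein of voltage-gated calcium channels, and its 220-nt exon (chr3:36409502-36409721, plus strand) is intronic with a stop codon at nt 10. Ψ was 0.76 (credible interval 0.52 to 0.92) in SSE mimetic cells and 0.17 (0.09 to 0.25) in scrambled cells. It rested on 14 inclusion and 3 skipping reads in SSE mimetic cells, against 16 inclusion and 52 skipping reads in scrambled cells (adjusted p = 0.00348, Fisher's exact test). The inclusion reads were thus near equal in number in both groups while the skipping reads were fewer in SSE mimetic cells. The authors' deposited table gives it a Bayes factor of 3.14e+11. A second STAC exon (chr3:36485763-36485925, 163 nt), named after its values were seen, had a Ψ of 0.88 in SSE mimetic cells and 0.28 in scrambled cells, from 13 inclusion and 0 skipping reads in SSE mimetic cells and 5 and 6 in scrambled cells. Both exons share the gene and are not independent.

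The YME1L1 exon belongs to the gene of a protease of the mitochondrial inner membrane. Ψ was 0.45 (0.24 to 0.70) in SSE mimetic cells and 0.05 (0.03 to 0.08) in scrambled cells. There were 12 inclusion and 6 skipping reads in SSE mimetic cells, and 11 inclusion and 99 skipping reads in scrambled cells (adjusted p = 0.000355, Fisher's exact test). Here too the inclusion reads were alike in number, and the intervals of the 2 groups did not meet.

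SELENOK encodes a selenoprotein of the endoplasmic reticulum membrane. Its exon had a Ψ of 0.33 (0.16 to 0.53) in SSE mimetic cells and 0.02 (0.00 to 0.06) in scrambled cells. The reads were 8 inclusion and 11 skipping in SSE mimetic cells and 1 inclusion and 51 skipping in scrambled cells (adjusted p = 0.0107, Fisher's exact test). A single inclusion read was seen in scrambled cells, the larger read set. The inclusion share of isoform-specific reads was 42.1% (95% Clopper-Pearson interval 20.2 to 66.5) in SSE mimetic cells and 1.92% (0.0487 to 10.3) in scrambled cells.

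STX1A encodes syntaxin 1A, a membrane protein of vesicle fusion, and SCLT1 encodes a protein of the centriole's distal appendages. The STX1A exon had a Ψ of 0.40 (0.23 to 0.60) in SSE mimetic cells and 0.09 (0.06 to 0.13) in scrambled cells. It had 15 inclusion and 7 skipping reads in SSE mimetic cells and 23 inclusion and 71 skipping reads in scrambled cells (adjusted p = 0.0313, Fisher's exact test). For SCLT1, Ψ was 0.73 (0.47 to 0.93) in SSE mimetic cells and 0.22 (0.15 to 0.31) in scrambled cells, from 22 inclusion and 2 skipping reads in SSE mimetic cells and 32 of each in scrambled cells (adjusted p = 0.045, Fisher's exact test). Neither exon had more than 1 read shared by both isoforms, so their Ψ came almost wholly from inclusion and skipping reads.

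F3 encodes tissue factor, the cell-surface protein that starts blood coagulation. Its 495-nt intronic exon (chr1:94540572-94541066, minus strand) has a stop codon at nt 102. Ψ was 0.60 (0.44 to 0.75) in SSE mimetic cells and 0.20 (0.17 to 0.23) in scrambled cells. It had 86 inclusion and 8 skipping reads in SSE mimetic cells, and 219 inclusion and 158 skipping reads in scrambled cells (adjusted p = 1.88e-07, Fisher's exact test). The read density of the flanking introns alone would place 89.8 reads in the exon in SSE mimetic cells and 296 in scrambled cells, no fewer than were seen in either group. After those reads were subtracted, the difference was 0.03 and the exon was not called.

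CBWD5 is 1 of several near-identical copies of a gene family, so its reads are of uncertain origin. Its 102-nt exon (chr9:65677128-65677229, plus strand) shares a splice site with a coding exon. Ψ was 0.20 (0.10 to 0.34) in SSE mimetic cells and 0.04 (0.02 to 0.06) in scrambled cells, from 10 inclusion and 5 skipping reads in SSE mimetic cells and 15 inclusion and 137 skipping reads in scrambled cells (adjusted p = 0.000803, Fisher's exact test). Skipping reads outnumbered inclusion reads in scrambled cells alone.

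**Figure D3:**
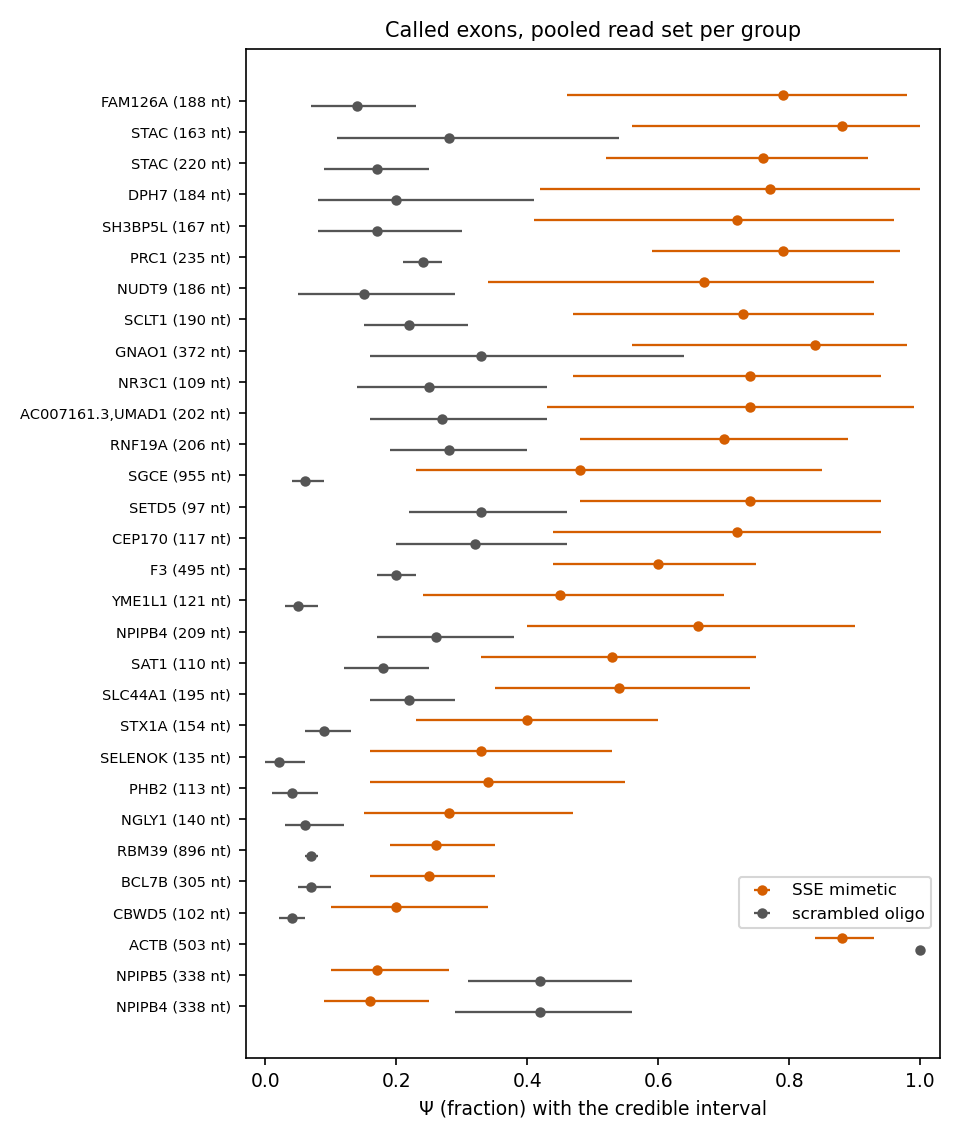
Ψ (fraction) of the 30 called exons with the authors' credible interval, SSE mimetic above and scrambled oligo below for each exon, in order of the difference. The intervals are apart for 24 of the 27 exons called higher and for the 3 called lower, and those of the SSE mimetic group are wider in most exons.

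A further 9 exons were named by the same rule and called higher, without passing Fisher's exact test. RBM39 encodes an SR-like splicing factor, and its 896-nt retained intron exon (chr20:35734186-35735081, minus strand) had a Ψ of 0.26 (0.19 to 0.35) in SSE mimetic cells and 0.07 (0.06 to 0.08) in scrambled cells. It had 103 inclusion and 7 skipping reads in SSE mimetic cells and 286 inclusion and 71 skipping reads in scrambled cells (adjusted p = 0.0578, Fisher's exact test). No other member called higher had as many inclusion reads in SSE mimetic cells. Intron density alone would give 64.5 of these in SSE mimetic cells and 234.5 in scrambled cells, and after subtraction the difference was 0.10, just above the threshold. PRC1 encodes a crosslinker of the spindle midzone. Its 235-nt exon (chr15:90983906-90984140) had a Ψ of 0.79 in SSE mimetic cells and 0.24 in scrambled cells and no skipping read in either group. Its Ψ followed from 56 inclusion and 82 shared reads in SSE mimetic cells and 348 inclusion and 1836 shared reads in scrambled cells, and an exon of AC068831.7 overlaps it on the same strand. BCL7B, a subunit of a chromatin remodelling complex, likewise had no skipping read: Ψ of its 305-nt exon (chr7:73537934-73538238) was 0.25 in SSE mimetic cells and 0.07 in scrambled cells, from 24 inclusion and 372 shared reads in SSE mimetic cells and 30 inclusion and 1533 shared reads in scrambled cells.

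SLC44A1, a choline transporter, had a Ψ of 0.54 in SSE mimetic cells and 0.22 in scrambled cells, from 21 inclusion and 6 skipping reads in SSE mimetic cells and 43 and 51 in scrambled cells. SAT1, which acetylates polyamines, had 0.53 in SSE mimetic cells and 0.18 in scrambled cells for its 110-nt exon (chrX:23784294-23784403). SETD5, a SET-domain chromatin protein, had 0.74 in SSE mimetic cells and 0.33 in scrambled cells for its 97-nt exon (chr3:9454005-9454101). SSE mimetic cells had the larger inclusion share in these 3 exons, though the adjusted p of Fisher's exact test was between 0.177 for SLC44A1 and 0.275 for SETD5. RNF19A, a ubiquitin ligase, had a Ψ of 0.70 in SSE mimetic cells and 0.28 in scrambled cells (chr8:100303160-100303365). It had 15 inclusion and 2 skipping reads in SSE mimetic cells and 22 and 16 in scrambled cells (adjusted p = 0.70, Fisher's exact test). CEP170, a centrosomal protein, had 0.72 in SSE mimetic cells and 0.32 in scrambled cells (chr1:243126378-243126494). NPIPB4 had 0.66 in SSE mimetic cells and 0.26 in scrambled cells (chr16:21840803-21841011), in a multicopy gene family whose reads are of uncertain origin. The inclusion share was 100% in SSE mimetic cells and 92.6% in scrambled cells for CEP170, and 95.2% and 82.4% for NPIPB4. Their Ψ also rested on shared reads: 33 in SSE mimetic cells and 178 in scrambled cells for CEP170, and 19 and 85 for NPIPB4. After intron reads were subtracted, the SAT1 difference was 0.22 and not called. CEP170 was called neither in the 2-isoform model on deposited reads (difference 0.43) nor after subtraction (0.56). With scaled scrambled reads, 7 of the named exons were no longer called, although their differences stayed close to the deposited ones: 0.31 for SLC44A1, 0.32 for SAT1, 0.38 for SETD5, RNF19A and CEP170, 0.37 for NPIPB4 and 0.15 for the CBWD5 exon above.

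The 27 exons called higher shared a pattern in their reads. Inclusion reads had a median of 13 in SSE mimetic cells and 17 in scrambled cells, and skipping reads had a median of 2 in SSE mimetic cells and 16 in scrambled cells. In 10 of the 27, inclusion reads in SSE mimetic cells were at least as many as in scrambled cells, despite the smaller read set. In 10 no skipping read was seen in SSE mimetic cells, and in 3 none in either group. Median Ψ was 0.67 in SSE mimetic cells and 0.18 in scrambled cells, and the differences ran from 0.16 to 0.65 with a median of 0.41. Since the call used these reads, the pattern describes the called exons and tests nothing.

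The 11 other exons called higher were named after their values were seen. The FAM126A exon had a Ψ of 0.79 in SSE mimetic cells and 0.14 in scrambled cells, from 12 inclusion and 0 skipping reads in SSE mimetic cells and 11 and 12 in scrambled cells. Its difference of 0.65 was the largest among the members. DPH7, SH3BP5L and NUDT9 had a Ψ of 0.67 to 0.77 in SSE mimetic cells and 0.15 to 0.20 in scrambled cells, from 10 to 12 inclusion reads in SSE mimetic cells. GNAO1, a G protein alpha subunit, had a Ψ of 0.84 in SSE mimetic cells and 0.33 in scrambled cells. NR3C1, the glucocorticoid receptor, had 0.74 in SSE mimetic cells and 0.25 in scrambled cells. PHB2, a prohibitin of the mitochondrial inner membrane, had 0.34 in SSE mimetic cells and 0.04 in scrambled cells, from 6 inclusion and 6 skipping reads in SSE mimetic cells and 5 and 57 in scrambled cells. After intron subtraction its difference was 0.07, and it was called neither then nor with scaled scrambled reads, where the difference was 0.28. SH3BP5L also lost its call with scaled scrambled reads, at a difference of 0.46. Over all 27 exons called higher, named by the rule or not, 11 kept the call under that setting. NGLY1, which removes sugar chains from misfolded glycoproteins, had 0.28 in SSE mimetic cells and 0.06 in scrambled cells. The others were in UMAD1, where AC007161.3 shares the exon, in SGCE and in STAC as given above.

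Lower calls were 3. ACTB encodes beta-actin, and its 503-nt retained intron exon (chr7:5529161-5529663, minus strand) spans a coding intron. Ψ was 0.88 (0.84 to 0.93) in SSE mimetic cells and 1.00 in scrambled cells. It had 3105 inclusion and 3090 shared reads in SSE mimetic cells and 9046 inclusion and 5328 shared reads in scrambled cells, with no skipping read in either group. The exon includes parts of the coding-transcript exons beside that intron, so its inclusion reads can also come from the coding transcript. ACTB has many processed pseudogenes, so its reads may be of uncertain origin. The other calls, named after their values were seen, were 338-nt exons of NPIPB4 (chr16:21854084-21854421) and NPIPB5 (chr16:22516765-22517102), paralogues with near-equal read numbers. NPIPB4 had a Ψ of 0.16 in SSE mimetic cells and 0.42 in scrambled cells, from 14 and 65 inclusion reads in those groups. NPIPB5 had 0.17 in SSE mimetic cells and 0.42 in scrambled cells, from 15 and 64 inclusion reads in those groups. None of the 3 had a skipping read, and the reads of the NPIPB copies may be the same reads.

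Of the 6 members with most isoform-specific reads, ACTB alone was called, and of the 6 with most skipping reads at a scrambled Ψ of 0.1 to 0.9, F3 alone. RPS3 and RPS18 encode ribosomal proteins and have processed pseudogenes. The RPS3 exon (chr11:75401640-75402446) had a Ψ of 0.45 in SSE mimetic cells and 0.42 in scrambled cells, and the RPS18 exon (chr6:33275500-33275657) had 0.01 in SSE mimetic cells and 0.00 in scrambled cells. RPS18 had 13 inclusion and 487 skipping reads in SSE mimetic cells and 37 and 2602 in scrambled cells. This exon was nearly always skipped in both groups. EIF4A2, a translation initiation helicase, had a Ψ of 0.76 in SSE mimetic cells and 0.78 in scrambled cells, from 85 inclusion and 13 skipping reads in SSE mimetic cells and 810 and 142 in scrambled cells. LETMD1 had 0.22 in SSE mimetic cells and 0.21 in scrambled cells. VEZT, an adherens junction protein, had 0.09 in SSE mimetic cells and 0.11 in scrambled cells, and ELOVL1, a fatty acid elongase, had 0.09 in SSE mimetic cells and 0.14 in scrambled cells. APLP2, an amyloid precursor relative, had 0.99 in SSE mimetic cells and 1.00 in scrambled cells. EIF4A1 had 0.82 in SSE mimetic cells and 0.97 in scrambled cells; exons of SENP3-EIF4A1 and AC016876.2 overlap it on the same strand, and the authors' deposited table gives it a Bayes factor of 0.82.

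The reads of the intronic exons were set beside those of the introns around them. Summed over the 231 intronic exons, inclusion reads numbered 2126 in SSE mimetic cells and 4182 in scrambled cells, a ratio of 0.508 for SSE mimetic over scrambled. The same ratio was 0.184 for skipping reads (3257 in SSE mimetic cells, 17706 in scrambled cells), 0.219 for shared reads and 0.598 for reads of the event that fit neither isoform, such as intron reads. Inclusion reads of intronic exons thus had a ratio closer to that of neither-isoform reads than to that of skipping reads. The read minimum bears on this, since it counts inclusion and skipping reads but not neither-isoform reads. SSE mimetic cells alone fell short of it for 643 candidate exons, and scrambled cells alone for 12. Exons with more isoform-specific reads in SSE mimetic cells were therefore favoured. The part of this selection in these ratios, and in the pooled percentages below, was not tested. In coding exons the ratio was 0.199 for inclusion, 0.145 for skipping, 0.211 for shared and 0.529 for neither-isoform reads. In long noncoding RNA exons it was 0.398 for inclusion, 0.103 for skipping, 0.354 for shared and 0.584 for neither-isoform reads. An inclusion ratio well above the skipping ratio was thus not particular to the intronic members. It was 0.244 for inclusion reads of exons that share a splice site and 0.277 where a coding intron is spanned.

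**Figure D4:**
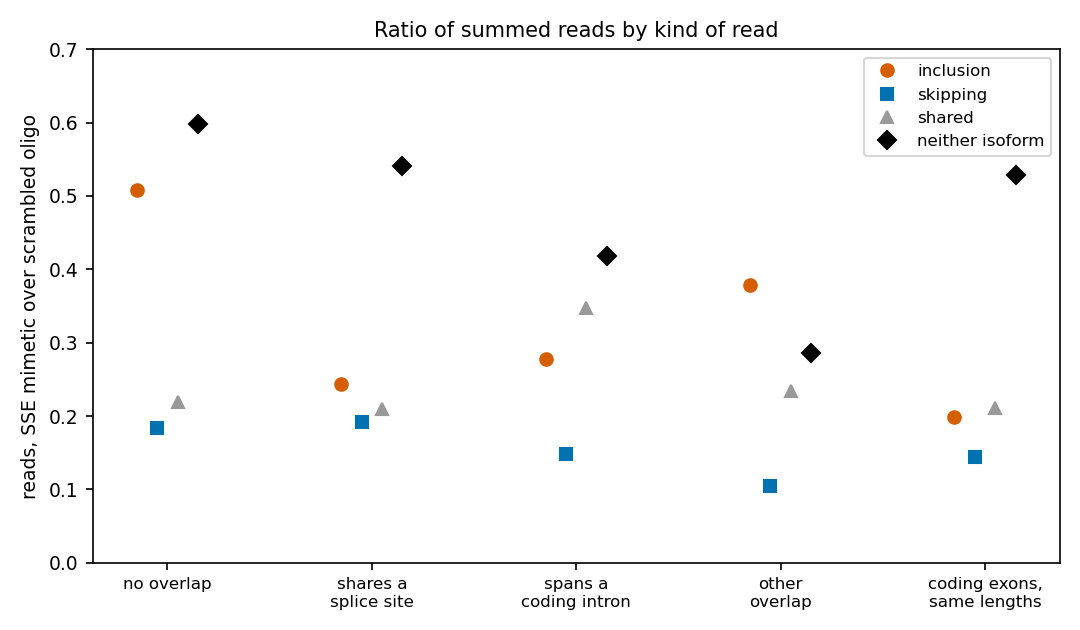
Ratio of summed reads, SSE mimetic over scrambled oligo, for 4 kinds of read in each class of the 477 exons and in 5349 coding exons of the same length range. Inclusion reads lie at 0.508 in exons with no overlap with coding-transcript exons and at 0.199 in coding exons, and reads of neither isoform at 0.598 and 0.529 in those sets.

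Pooled over the intronic exons, the percentage of inclusion reads among inclusion and skipping reads was 39.5% (95% Clopper-Pearson interval 38.2 to 40.8) in SSE mimetic cells and 19.1% (18.6 to 19.6) in scrambled cells. These intervals cover counting error only, and they treat reads as independent molecules, which reads without molecular identifiers are not.

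The density of reads in the flanking introns was used to compute how many reads an exon would hold if it were covered like its introns. For the intronic exons that number summed to 1960 of 2126 inclusion reads (92.2%) in SSE mimetic cells and to 99.99% in scrambled cells. At or below their own expected number were 104 of the 231 exons in SSE mimetic cells and 113 in scrambled cells, and above 2 times that number were 65 in SSE mimetic cells and 62 in scrambled cells. The median ratio of seen to expected reads was 1.17 in SSE mimetic cells and 1.02 in scrambled cells. In coding exons it was 4.74 in SSE mimetic cells and 9.36 in scrambled cells. In long noncoding RNA exons it was 1.68 in SSE mimetic cells and 1.76 in scrambled cells, nearer to the intronic members than to the coding exons. Many of the intronic exons were therefore covered no more densely than the introns around them. Reads that fit neither isoform may also be spliced reads, or come from further exons inside those introns, so the expected number can be too large. For the 17 intronic exons called higher, intron density gave 58.9% of 301 inclusion reads in SSE mimetic cells and 97.8% of 473 in scrambled cells. Their skipping reads numbered 57 in SSE mimetic cells and 646 in scrambled cells, a ratio of 0.0882. After subtraction of the expected reads, 21 of the 27 exons called higher were still called. The others were in F3, SAT1, CEP170, PHB2, UMAD1 and SGCE, the last of which had too few reads left for a value. Of the 3 called lower, ACTB was still called, and the NPIPB4 and NPIPB5 exons had no value left. The part of unspliced RNA in the remaining differences was not tested.

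**Figure D5:**
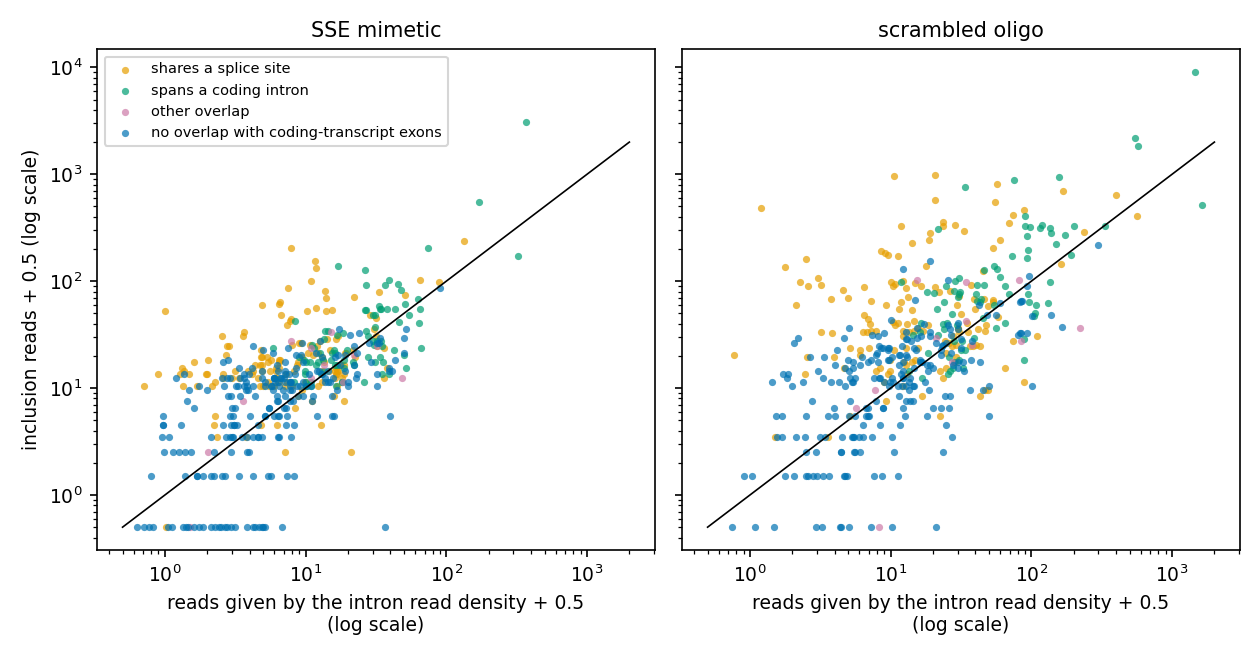
Inclusion reads of each of the 477 exons (vertical axis, reads + 0.5, log scale) against the reads that the density of its flanking introns would give (horizontal axis, reads + 0.5, log scale), SSE mimetic on the left and scrambled oligo on the right. The line marks equal numbers. Exons with no overlap with coding-transcript exons lie around the line in both panels (median ratio 1.17 and 1.02), and exons that share a splice site have a median ratio of 2.23 on the left and 2.98 on the right.

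The members were also sorted by the role of their genes, with patterns of gene symbols, which can catch a gene of another role (SPTLC1, a lipid enzyme, fell in the cytoskeleton list). The lists overlap, and their medians are descriptions beside the 0.03 of all 477 members and the -0.03 of all tested exons. Their calls stand beside 5.66% higher and 0.629% lower among all members, and 3.10% higher and 0.887% lower among all tested exons. With so few members per list, the calls name single exons and give no trait of a list. Splicing regulators had 10 members in 7 genes with a median difference of 0.09. RBM39 was called higher and 0 were lower. RBM3, a cold-inducible RNA-binding protein, had 3 overlapping members whose differences were 0.03, 0.32 and 0.35, none called. Membrane traffic genes had 21 members with a median of 0.08, of which STX1A was called higher and 0 lower, and 18 differences were above 0 and 3 below. Cell cycle and DNA repair genes had 16 members with a median of 0.05, of which PRC1 and CEP170 were called higher and 0 lower.

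Chromatin and transcription genes had 15 members with a median of 0.04, of which SETD5 was called higher and 0 lower. Ubiquitin and proteasome genes had 18 members with a median of 0.005 and RNF19A called higher. Metabolism genes had 17 members with a median of 0.01 and SLC44A1 called higher. Cytoskeleton and adhesion genes had 15 members with a median of 0.01 and ACTB called lower. Mitochondrial genes had 22 members with a median of 0.03, and chaperones had 6 with 0.05, with 0 calls in either direction. There were also 0 calls among the 6 members of spliceosome genes (median 0.01), the 14 of RNA export and decay genes (0.01), the 19 of translation genes (-0.02), the 17 of small nucleolar RNA host genes (-0.01) and the 10 of cell death and RNA sensing genes (-0.04). In RNA decay, UPF3A had members with differences of -0.17 and 0.14, SMG5 had Ψ 0.47 in SSE mimetic cells and 0.85 in scrambled cells, and none of these was called. Of the medians, those of the spliceosome, RNA export and decay, translation, small nucleolar RNA host, cytoskeleton, metabolism and cell death lists changed sign under at least 1 of the 2-isoform models with deposited, intron-subtracted or scaled reads, so no direction is given for them. The list of markers of other cell types matched 0 members. The tables hold no expression levels, so the label of the cell line could not be checked against its markers.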

How the data were processed

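RNA sequencing of MDA-LM2 cells was deposited as skipped-exon summaries in the layout of MISO, 1 per group with 2 samples combined, and 1 comparison of the groups. STAR 2.7 and hg38 are the aligner and build named per the submitters' processing notes. Not given in the sources used here are MISO's version, settings and event set and how samples were combined. Per the file headers, Ψ is a fraction between 0 and 1 with its credible interval (whose level they do not state), the Bayes factor is a ratio of evidence made by the authors, and the deposited difference is a signed score, SSE mimetic minus scrambled oligo. The authors' tables also give reads per isoform as text.

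From these, events with the same skipped exon were reduced to the one with most isoform-specific reads, exons were matched to GENCODE release 29 by coordinates, and exons were tested from 10 isoform-specific reads per group upward. A call needed a Bayes factor of at least 10 and a difference of at least 0.1. Fisher's exact test (two-sided, per exon) was adjusted by Benjamini-Hochberg over all tested exons with a threshold of 0.05. Ψ and Bayes factors were also recomputed with a 2-isoform likelihood, tested on simulated data, at a read length of 76 nt, the closest of 9 tried. It was run on deposited reads, after subtraction of the intron read density (neither-isoform reads over both flanking introns), and with scrambled reads scaled by 0.211. Python 3.11.15, numpy 2.4.6, pandas 2.3.3, scipy 1.17.1 and matplotlib 3.10.9 were used. Other alternatives were other thresholds, read minimums and subsets of the members. No per-sample test was possible, and intervals cover counting error only.

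The members, gene lists and tests were chosen with earlier results of these data known. Named exons were, 1 per gene, up to 12 called exons per direction that differed most and had 20 or more isoform-specific reads in both groups (10 met this), the 6 with most isoform-specific reads, the 6 with most skipping reads at intermediate scrambled Ψ, up to 2 called per direction from each gene list, and all that passed Fisher's exact test. Some exons that this rule selects are not reported here. The ends of the flanking introns, planned beside the printed sequences, were not used here, because only transcript sequences were at hand.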

Additional observations from a re-analysis of the deposited data

How the results depend on the processing

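The counts of 27 exons called higher and 3 lower, and the median difference of 0.03, followed the read and evidence thresholds. A Bayes factor of at least 100 gave 12 higher and 1 lower, and at least 5 gave 43 and 5. At least 20 isoform-specific reads per group gave 9 higher, 1 lower and a median of 0.00 in 190 members, and at least 5 reads gave 43 higher and 5 lower in 917. With Fisher's exact test in place of the Bayes factor there were 7 higher and 0 lower. The inclusion share in place of Ψ gave 0 lower and a median of 0.00, with 21 higher. The 2-isoform model gave 5 lower (33 higher, median 0.0188) on deposited reads and 5 lower (26 higher, median 0.014) after intron subtraction, which left 81 members without reads and so tested fewer exons. With scaled scrambled reads it gave 11 higher, 1 lower and a median of 0.0602. Members with a skipping read gave 0 lower and a median of 0.06 (24 higher), and intronic members 17 higher and a median of 0.05. The 7 exons of Fisher's exact test became 43 (and 1 smaller) without adjustment, 4 with at least 20 reads, 1 with scaled reads, and 12 (and 2 smaller) after intron subtraction. A minimum difference of 0.2, every event of an exon, and members in 1 gene alone left all counts within 1.5 times. Among the named exons, LETMD1, which was not called, changed sign, with a difference of 0.01 as deposited, -0.0077 after intron subtraction and -0.0192 with scaled reads. Apart from smaller subsets, scaled reads and fewer tested exons, which follow from how those alternatives are built, the cause of the changes was not tested. No paired analysis was possible because the deposited tables hold 1 combined read set per group, for which reason no sample could be left out either. At a median of 17 isoform-specific reads in SSE mimetic cells, differences of the size of the median are not detectable in a single exon.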

Other observations

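A few members touch genes of small nucleolar RNAs, which guide the modification of ribosomal and small nuclear RNA and are processed from introns of their host genes. Such a gene lay inside 3 of the 477 exons and in the flanking introns of 11. The NOP56 exon that holds SNORD110 (chr20:2654176-2654308) had a Ψ of 0.16 in SSE mimetic cells and 0.08 in scrambled cells. RACK1, with SNORD95, had 0.01 in both groups, and RBMX, with SNORD61, had 0.94 in SSE mimetic cells and 0.99 in scrambled cells. None of the 3 was called. Exons of another gene overlapped 27 members on the same strand and 18 on the other strand.

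The lowest difference of any member was -0.40, in the helicase gene DDX56, named after its values were seen and not called: Ψ was 0.46 in SSE mimetic cells and 0.86 in scrambled cells, from 10 inclusion reads in SSE mimetic cells and 42 in scrambled cells and no skipping read in either group. Among uncalled exons with high values, PHF11 had 0.60 in SSE mimetic cells and 0.14 in scrambled cells, and MRPS27, a mitochondrial ribosomal protein gene, had 0.68 in SSE mimetic cells and 0.31 in scrambled cells.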
